A study of Mus musculus with 6 samples.

Results

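RGK proteins are small GTPases of the Ras superfamily, and they were examined here together with the subunits of the skeletal muscle voltage-gated calcium channel to which they bind. The members are 3 RGK genes (Rrad, Gem and Rem1) and 4 channel subunit genes (Cacna1s, Cacnb1, Cacna2d1 and Cacng1), or 7 of the 13226 genes in the count table. Rrad was chosen by its measured difference between muscles that received Yap-shRNA and control muscles, and the other 6 members were taken for their relation to it. The contrast for Rrad is therefore given as a description with no test. A wider list of 30 RGK and calcium channel subunit genes holds 15 with a row in the table, the 7 members among them. The other 15 listed genes were not analysed here, Rem2 included.

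The samples were whole tibialis anterior (TA) muscles of male C57BL/6 mice aged 8 weeks. Contralateral TA muscles were injected with an adeno-associated virus (AAV6) that carried either a short hairpin RNA against Yap (AAV6:Yap-shRNA) or a control, and polyadenylated RNA was sequenced 7 days later, with 3 muscles in each group. The vector field names AAV6:LacZ-shRNA as the control, whereas the sample titles call it an empty vector, and the word control is used here. The article's general vector methods place the Yap hairpin in a plasmid with eGFP and a CMV promoter, which is not specific to muscle fibres. They do not say whether the LacZ-shRNA vector carried eGFP. Both muscles of an animal belong to different groups, but the labels do not say which numbers share an animal. With 3 muscles in each group, an exact permutation test cannot reach a p below 0.10, and differences were tested in 1 model fitted across all genes.

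Yap is a transcriptional coactivator that binds DNA through TEAD factors and is restrained by the Hippo pathway. Voltage-gated L-type channels of skeletal muscle sit in the transverse tubules, where the pore-forming subunit senses the membrane potential and couples it to calcium release from the sarcoplasmic reticulum. RGK proteins bind the beta subunit of these channels and inhibit the current. Rrad encodes Rad, the RGK protein named for its association with diabetes, Gem encodes a family member first described as a mitogen-induced gene, and Rem1 encodes Rem.

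TEAD factors recognise a motif with the letters CATTCC. These letters, which read GGAATG on the opposite strand, were searched on both strands of RefSeq promoters of build GRCm38.p6, from 250 bases before to 50 bases after each start. The promoter table held 4 of the 7 members and 8 of the 15 measured genes of the wider list. Rrad, Gem and Cacng1 had no entry. The motif lay in the promoters of Cacna1s and Rem1, which are shown because they are the members whose promoter held it, and in those of Cacng6 and Cacng7. It was in 14.7% of all 32851 promoters (4817), so its presence is a description and not a site. In Cacna1s (chr1:136052561-136052860, plus strand) it began 130 bases before the start, at position -130, and in Rem1 (chr2:152626758-152627057, plus strand) at position -175. The capitals mark the motif, and each sequence runs from 5′ to 3′.
Cacna1s: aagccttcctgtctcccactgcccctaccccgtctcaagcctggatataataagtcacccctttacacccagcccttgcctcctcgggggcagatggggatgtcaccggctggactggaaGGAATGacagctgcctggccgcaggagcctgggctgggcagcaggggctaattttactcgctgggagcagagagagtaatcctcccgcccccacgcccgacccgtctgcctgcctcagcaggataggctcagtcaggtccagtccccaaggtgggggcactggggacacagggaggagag
Rem1: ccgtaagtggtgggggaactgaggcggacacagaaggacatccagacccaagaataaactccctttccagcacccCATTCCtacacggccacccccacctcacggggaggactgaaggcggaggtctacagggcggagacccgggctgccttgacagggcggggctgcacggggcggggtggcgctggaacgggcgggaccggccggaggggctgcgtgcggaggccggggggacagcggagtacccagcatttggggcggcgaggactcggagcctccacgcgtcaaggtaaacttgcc
The windows of Cacnb1 and Cacna2d1 did not hold these letters. Neither Cacna1s nor Rem1 passed the test between groups, but no gene of the table did, so this is no result about the motif. Their values are given further on.

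Library totals were 12285953 to 12545053 counts in controls and 11987167 to 12710393 after Yap-shRNA. Within a group, the chi-square per degree of freedom between libraries was 7.63 to 21.5, where sampling alone gives about 1. Yap1, the targeted gene, had 915, 781 and 833 reads in controls and 381, 311 and 495 in Yap-shRNA muscles, with a log2 fold change of -1.10 (SE 0.16) and, by the quasi-likelihood test of edgeR, an adjusted p of 0.436. The muscle fibre markers Acta1 and Ckm reached 18000 CPM (counts per library total with TMM factors) or more in every library. The libraries were not alike in other tissue markers. Alb, a liver transcript, had 7, 301 and 2909 reads in controls and 93, 262 and 4 in Yap-shRNA muscles. Tnmd, a tendon gene, stood at 15.3 CPM in control muscle 1 and 16.8 CPM in Yap-shRNA muscle 3, against 2.38 to 3.93 CPM in the other 4 muscles.

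Rrad was scarce in control muscles and higher in every muscle that received Yap-shRNA. Rrad (ENSMUSG00000031880; GRCm38 chromosome 8, 104628070 to 104631327, minus strand) is a short gene, and its merged exons span 1577 bases. It had 58, 23 and 21 reads in controls, against 254, 228 and 457 after Yap-shRNA. These correspond to 4.51, 1.92 and 1.72 CPM in controls and to 21.3, 17.5 and 36.4 CPM in Yap-shRNA muscles. The groups did not overlap, and the lowest Yap-shRNA muscle was 3.88-fold above the highest control muscle. The mean was 2.72 ± 1.56 CPM (SD, n = 3) in control and 25.1 ± 10.0 CPM (SD, n = 3) after Yap-shRNA, with a fitted log2 fold change of 3.19 (SE 0.39), or 9.12-fold.

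By this fold change Rrad was second among the 13226 genes, after Aldh3a1, an aldehyde dehydrogenase gene, at 3.84 (SE 1.01). Aldh3a1 rested on far fewer reads, with 3, 0 and 2 in control and 17, 5 and 55 in Yap-shRNA muscles. Within each group Rrad was uneven. Control muscle 1 had more of it than both other control muscles, and Yap-shRNA muscle 3 more than both other Yap-shRNA muscles. The coefficient of variation was 57.2% in control and 39.9% in Yap-shRNA muscles, where counting alone would give 17.1% and 5.65%. Control muscle 1 and Yap-shRNA muscle 3 are also the muscles with the high Tnmd values. The log2 fold change of Rrad was 3.78 without control muscle 1, 2.82 without Yap-shRNA muscle 3 and 3.40 (SE 0.21) without both. Leaving out both removes the highest muscle of each group, and the part of tendon tissue in the Rrad difference was not tested. An antisense gene, Gm33023, shares 141 exon bases with Rrad and has no row in the table, and the strand setting of the counting is not given in the sources used here. In these bulk samples, more cells that express a gene and more RNA per cell cannot be told apart.

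**Figure D1:**
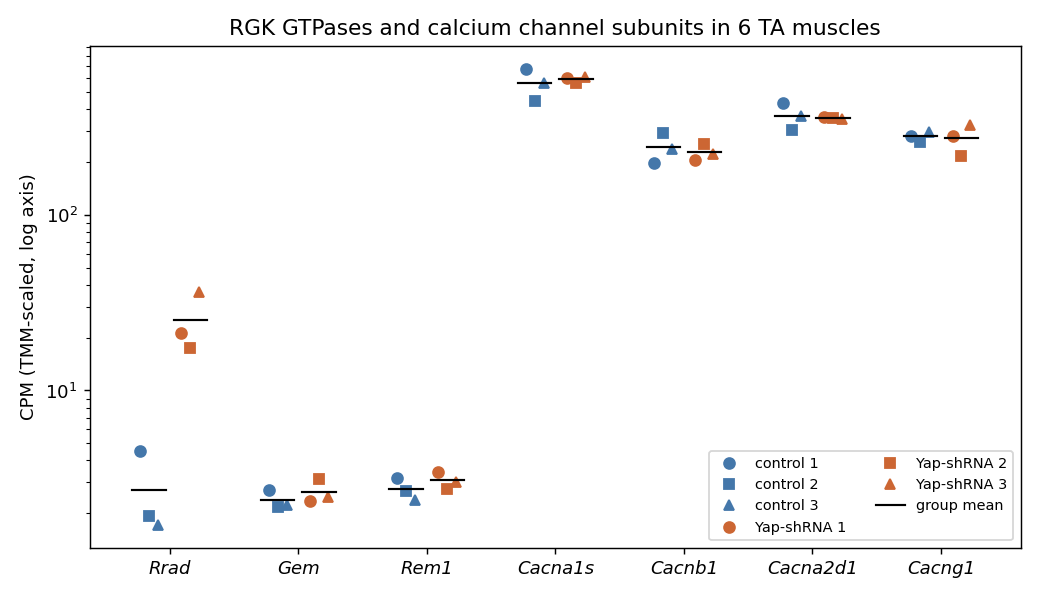
TMM-scaled CPM (log axis) of the 7 members in each of 6 TA muscles, with control muscles in blue, Yap-shRNA muscles in orange and the group mean as a bar. The 3 Yap-shRNA muscles lie between 17.5 and 36.4 CPM for Rrad, above the control muscles at 1.72 to 4.51 CPM, and for the other 6 members the groups overlap.

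No gene of the table passed the threshold of an adjusted p below 0.05 in edgeR's quasi-likelihood test, so the background of called genes was 0%. An unadjusted p below 0.05 was found for 232 of 13226 genes (117 higher and 115 lower in Yap-shRNA muscles). This is a smaller share than the 0.05 that a calibrated test gives where no gene differs. The lack of calls is therefore not read as a lack of change. edgeR's likelihood ratio test called 5 genes (0.0378%) and DESeq2 also called 5 (0.0378%). Rrad was among the genes called by each, which rests on the contrast that chose it and is read as no result. The other 6 members were called by none of these tests. All 3 Yap-shRNA muscles lay above all 3 control muscles for 2.56% of genes (339) and below them for 2.71% (358). Of the 7 members Rrad was in the first class, by the contrast that chose it, and none was in the second.

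The other measured RGK genes, Gem and Rem1, were scarce in both groups, with values that overlapped. Gem (ENSMUSG00000028214; chromosome 4, 11704457 to 11714752, plus strand) had 35, 26 and 27 reads in controls and 28, 41 and 31 in Yap-shRNA muscles. Its mean was 2.37 ± 0.306 CPM (SD, n = 3) in control and 2.66 ± 0.43 CPM (SD, n = 3) after Yap-shRNA. The highest value, 3.15 CPM, was in Yap-shRNA muscle 2, where Rrad was lowest of its group. The fitted log2 fold change of Gem was 0.16 (SE 0.24, adjusted p = 1.00), and the 95% interval of the fold change ran from 0.771 to 1.63. A rise of Gem like that of Rrad lies outside this interval, but the spread between Yap-shRNA muscles (16.2%) was close to the 17.3% that counting alone gives at this depth.

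Rem1 (ENSMUSG00000000359; chromosome 2, 152626951 to 152635198, plus strand) had 41, 32 and 29 reads in controls and 41, 36 and 38 in Yap-shRNA muscles. The highest values of both groups, 3.19 and 3.44 CPM, were in the muscles numbered 1, and the lowest Yap-shRNA value, 2.76 CPM, lay within the control range. Its log2 fold change was 0.16 (SE 0.22, adjusted p = 1.00), with a 95% interval of the fold change from 0.793 to 1.57.

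Read per kilobase of exon, the 3 RGK genes stood close together in control muscles, and Rrad was the highest of them in every Yap-shRNA muscle. CPM were divided by the merged exon length of each gene so that levels can be compared between genes. In control muscles Rrad stood at 2.86, 1.22 and 1.09 CPM per kb, Gem averaged 1.13 ± 0.146 (SD, n = 3) and Rem1 averaged 1.27 ± 0.191 (SD, n = 3). Rrad overlapped with Rem1 there, as did Rem1 with Gem, so their order in control muscle was within the spread. In Yap-shRNA muscles Rrad stood at 13.5, 11.1 and 23.1 CPM per kb, while Gem averaged 1.26 ± 0.204 and Rem1 1.43 ± 0.158 (SD, n = 3). Rrad made up 50.8%, 34.9% and 33.6% of the summed per-kb level of the 3 RGK genes in controls, and 83.3%, 80.0% and 90.0% in Yap-shRNA muscles. The sum of Gem and Rem1 was 2.16 to 2.77 CPM per kb in control and 2.58 to 2.78 in Yap-shRNA muscles. The summed RGK level was 3.25 to 5.64 CPM per kb in control muscles and 13.9 to 25.7 in Yap-shRNA muscles. The difference in the sum rests on the values that chose Rrad.

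The 4 channel subunit genes were abundant in both groups, and none of them passed the test, as for every gene of the table. Cacna1s (ENSMUSG00000026407; chromosome 1, 136052750 to 136119822, plus strand) encodes Cav1.1, the pore and voltage sensor of the skeletal muscle channel. It had 8698, 5298 and 6844 reads in controls and 7123, 7277 and 7649 in Yap-shRNA muscles. The 3 Yap-shRNA muscles, at 559 to 610 CPM, lay between the lowest and the highest control muscle, at 443 and 677 CPM. The mean was 561 ± 117 CPM in control and 589 ± 26.7 CPM after Yap-shRNA (SD, n = 3), and the log2 fold change was 0.07 (SE 0.14, adjusted p = 1.00) with a 95% interval from -0.26 to 0.40. Its exons share 1309 bases with the antisense gene Gm37759, which had 14 to 32 reads in each library.

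Cacnb1 (ENSMUSG00000020882; chromosome 11, 98001508 to 98023034, minus strand) encodes the beta 1 subunit, the kind of subunit to which RGK proteins bind. It had 2549, 3487 and 2893 reads in controls and 2445, 3304 and 2789 in Yap-shRNA muscles. Muscle 2 was the highest of both groups, and the Yap-shRNA range of 205 to 254 CPM lay inside the control range of 198 to 292 CPM. The log2 fold change was -0.09 (SE 0.15, adjusted p = 1.00), with a 95% interval of the fold change from 0.745 to 1.18.

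Cacna2d1 (ENSMUSG00000040118; chromosome 5, 15934691 to 16374511, plus strand) encodes the alpha 2 delta 1 subunit, an extracellular auxiliary subunit. It had 5574, 3615 and 4439 reads in controls and 4290, 4652 and 4420 in Yap-shRNA muscles. The Yap-shRNA muscles were nearly equal, at 352 to 360 CPM, within a control range of 302 to 434 CPM. The log2 fold change was -0.04 (SE 0.13, adjusted p = 1.00), with a 95% interval of the fold change from 0.794 to 1.19.

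Cacng1 (ENSMUSG00000020722; chromosome 11, 107703218 to 107716522, minus strand) encodes the gamma 1 subunit of the skeletal muscle channel. It had 3626, 3111 and 3608 reads in controls and 3362, 2800 and 4084 in Yap-shRNA muscles. Here the Yap-shRNA muscles were the more uneven group, at 215 to 326 CPM against 260 to 296 CPM in control. The log2 fold change was -0.03 (SE 0.15, adjusted p = 1.00), with a 95% interval of the fold change from 0.781 to 1.23.

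**Figure D2:**
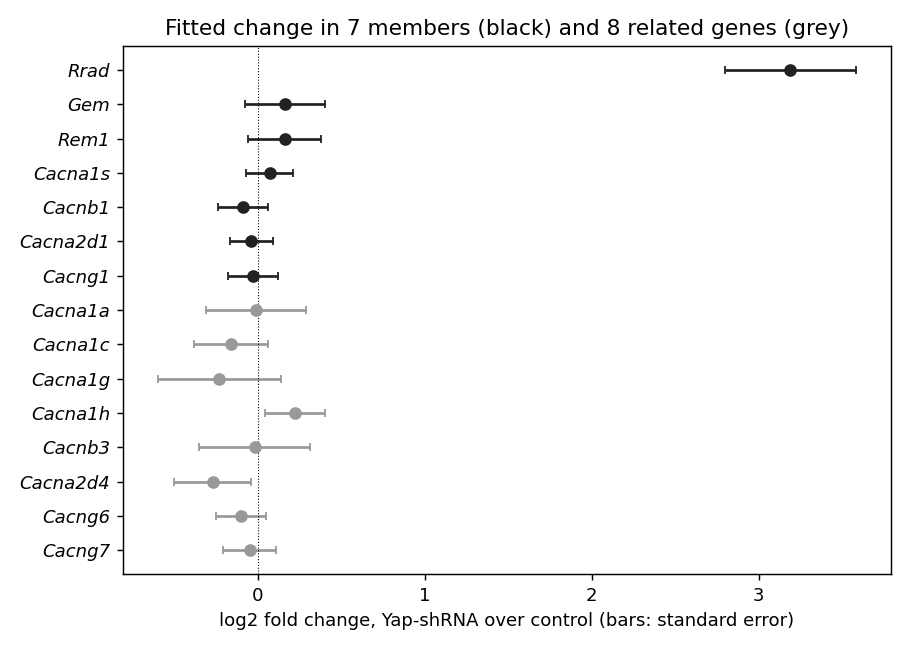
Fitted log2 fold change (Yap-shRNA over control, bars: standard error) of the 7 members (black) and the other 8 measured RGK and channel subunit genes (grey), from 3 muscles a group. Rrad stands at 3.19, and the other 14 genes lie between -0.27 and 0.22.

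Of the 8 further measured genes of the wider list, none passed the test, as for every gene of the table. None had groups that did not overlap (2.56% of all genes were higher in all 3 Yap-shRNA muscles and 2.71% lower). Cacna1c, the L-type pore of heart and smooth muscle, had 86, 61 and 48 reads in controls and 52, 59 and 65 in Yap-shRNA muscles (log2 fold change -0.16, SE 0.22). The T-type pores were Cacna1h, at 0.22 (SE 0.18), and Cacna1g, at -0.23 (SE 0.37), and the P/Q-type pore Cacna1a was at -0.01 (SE 0.30). Among these, Cacna1h had the highest log2 fold change, with 69, 67 and 51 reads in control and 72, 81 and 67 in Yap-shRNA muscles. The auxiliary subunit genes were Cacnb3 at -0.02 (SE 0.33), Cacng7 at -0.05 (SE 0.16), Cacng6 at -0.10 (SE 0.15) and Cacna2d4 at -0.27 (SE 0.23). Cacna2d4, which had the lowest log2 fold change, stood at 21.0 ± 5.08 CPM in control and 17.3 ± 4.79 CPM after Yap-shRNA (SD, n = 3). All 8 had an adjusted p of 1.00. Over the 14 RGK and channel genes other than Rrad, the median size of the log2 fold change was 0.10, and it was 0.09 over all genes of the table.

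Across the 15 measured genes the channel subunit genes of skeletal muscle had the highest levels per kilobase. In control muscles Cacng1 was highest, at 224 ± 14.5 CPM per kb (SD, n = 3), followed by Cacng6 at 88.7 ± 16.9, Cacna1s at 85.6 ± 17.9, Cacnb1 at 53.5 ± 10.3 and Cacna2d1 at 29.5 ± 5.30. Cacng6 encodes gamma 6, a relative of gamma 1, and its control values overlapped with those of Cacna1s, while the other neighbours at the top of the order did not overlap. Cacng7 came next at 9.13 ± 0.503 CPM per kb (SD, n = 3), apart from both of its neighbours. Below it, Cacna2d4 at 2.21 ± 0.536 overlapped with Rrad at 1.72 ± 0.987 (SD, n = 3). Cacnb3, Cacna1h, Cacna1g, Cacna1c and Cacna1a followed Gem with means of 0.860, 0.518, 0.343, 0.247 and 0.174 CPM per kb, and Cacna1c overlapped with both Cacna1g and Cacna1a. By its mean, Rrad was eighth of the 15 genes in control muscles and sixth in Yap-shRNA muscles. The order among the 7 members depended on the length used, and other lengths were not tried for the 15 genes.

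**Figure D3:**
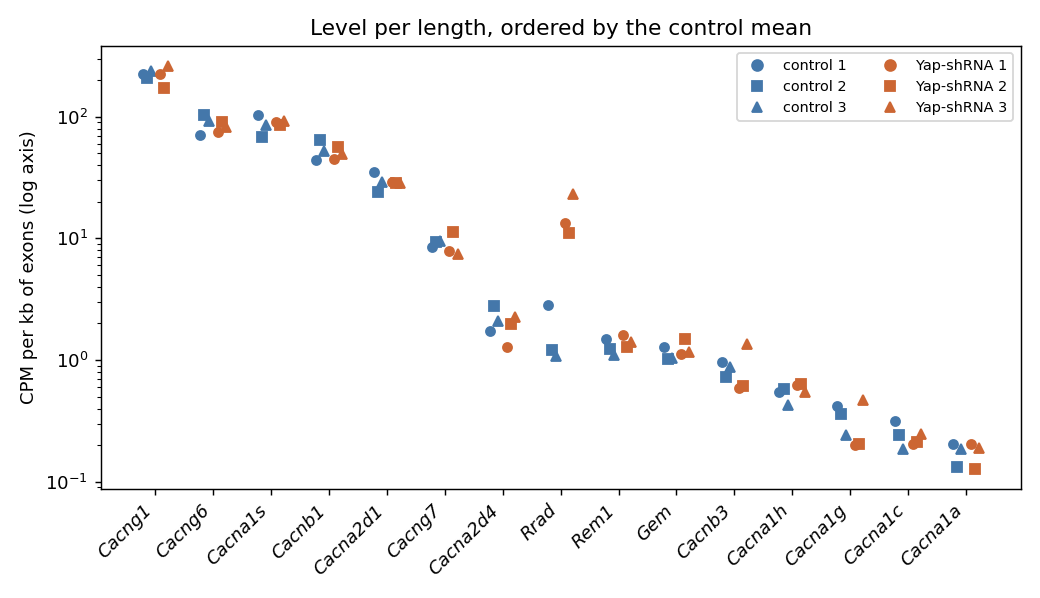
TMM-scaled CPM per kb of merged exons (log axis) of the 15 measured RGK and calcium channel subunit genes in each muscle, ordered by the control mean. The gene with separate groups is Rrad, with 1.09 to 2.86 CPM per kb in control and 11.1 to 23.1 in Yap-shRNA muscles.

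The level of Rrad relative to that of its binding subunit was also computed per kb in each muscle. For every Rrad unit there were 15.3, 52.8 and 48.0 Cacnb1 units in controls, and 3.35, 5.05 and 2.13 in Yap-shRNA muscles. Cacnb1 thus exceeded Rrad in each of the 6 muscles at the RNA level, also where Rrad was highest. This ratio carries the difference in Rrad that chose it, since Cacnb1 itself differed by less than its spread.

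Not all channel subunit genes kept a steady ratio to each other in control muscles. Reads of Cacnb1 per read of Cacna1s were 0.293, 0.658 and 0.423 in control and 0.343, 0.454 and 0.365 in Yap-shRNA muscles. For Cacna2d1 per Cacna1s the same ratio was 0.641, 0.682 and 0.649 in control and 0.602, 0.639 and 0.578 in Yap-shRNA muscles, a narrower range. Relative to their mean over 6 muscles (log2 CPM), Cacna1s and Cacna2d1 were both high in control muscle 1 (0.25 and 0.27) and low in control muscle 2 (-0.36 and -0.25). Cacnb1 and Cacng6 went the other way, at -0.23 and -0.27 in control muscle 1 and at 0.32 and 0.29 in control muscle 2. Long and short genes also stood apart in these libraries. Among genes of at least 10 CPM on average, the median deviation of the 951 genes with exons under 2 kb was -0.16 in control muscle 1 and 0.18 in control muscle 2, against 0.07 and -0.08 for the 2519 genes of 6 kb and over. The 3794 genes of 2 to 6 kb, the class of Cacnb1, stood at -0.05 and 0.05, closer to 0 than Cacnb1 itself. Merged exons span 6550 bases in Cacna1s, 12416 in Cacna2d1, 4529 in Cacnb1 and 1977 in Cacng6, while Cacng1, with 1249, deviated by 0.04 and -0.08. In the other 4 libraries long and short genes differed by at most 0.04. This look at length was chosen after the values were seen, and its part in the subunit ratios was not tested. Together the 4 channel members took 0.166%, 0.126% and 0.142% of all reads in controls and 0.144%, 0.143% and 0.149% in Yap-shRNA muscles, so the 3 Yap-shRNA values lay within the control range.

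**Figure D4:**
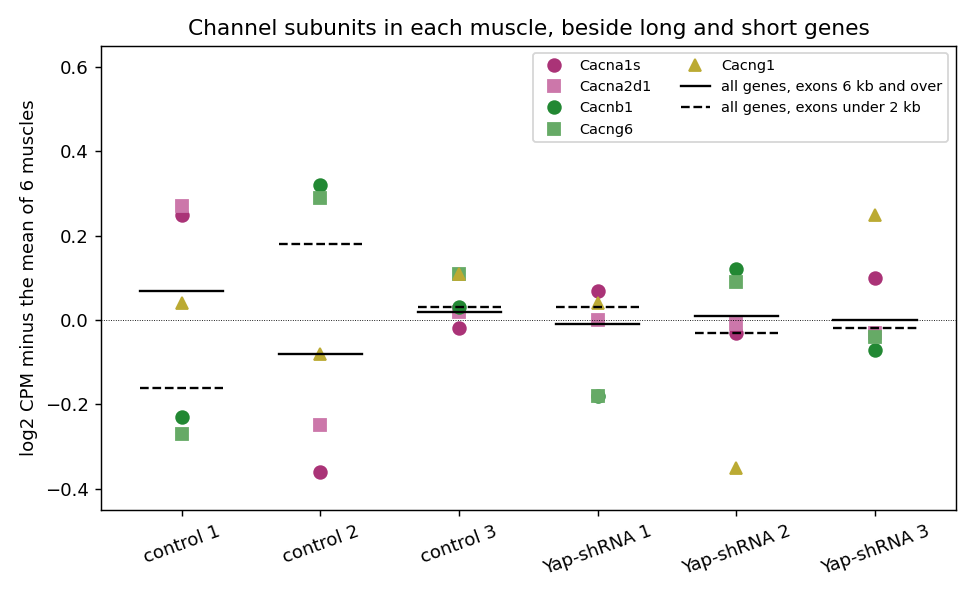
Log2 CPM minus the mean of the 6 muscles for Cacna1s, Cacna2d1, Cacnb1, Cacng6 and Cacng1, with the median of all genes with exons of 6 kb and over (solid line) and under 2 kb (dashed line). In control muscles 1 and 2 the long genes Cacna1s and Cacna2d1 and the genes Cacnb1 and Cacng6 lie on opposite sides of 0.

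The partners that couple the channel to calcium release did not pass the test, as for every gene of the table. Of the 15 listed, 14 had a row and none was called, with 13 negative and 1 positive log2 fold changes and a median of -0.06, beside 0.00 over all genes. Over all genes 6758 of 13226 were negative, and all 8 muscle fibre markers were. The partners ran from Casq1, the calcium buffer of the sarcoplasmic reticulum, at -0.26 (SE 0.12), to Fkbp1a, which binds the release channel, at 0.00 (SE 0.10). Casq1 stood at 3500, 3700 and 3770 CPM in control and 2870, 2690 and 3620 CPM in Yap-shRNA muscles, so the groups overlapped through Yap-shRNA muscle 3 alone.

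Among known binding partners of RGK proteins, such as calmodulin and 14-3-3 proteins, 19 of 20 listed genes had a row. None was called, as for every gene of the table. Their median log2 fold change was -0.01, from Sfn, a 14-3-3 protein, at -0.52 (SE 0.36) to Ywhaq, another, at 0.12 (SE 0.21). Sfn rested on 7 to 21 reads in a library. Of the 19 partner genes, 1 was lower in all 3 Yap-shRNA muscles than in all 3 control muscles (2.71% of all genes were) and 0 were higher in all 3.

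Of 29 other small GTPases of the Ras branch that were listed, 23 had a row. None was called, as for every gene of the table, and their median log2 fold change was 0.01 (12 positive, 11 negative). The lowest was Rasl11a at -0.15 (SE 0.33) and the highest was Rasd2, a GTPase known as Rhes, at 0.50 (SE 0.16, adjusted p = 1.00). Rasd2 stood at 16.3, 17.0 and 17.0 CPM in control and at 29.3, 23.6 and 18.3 CPM in Yap-shRNA muscles. Its groups did not overlap, but its order among Yap-shRNA muscles differed from that of Rrad, which was highest in muscle 3. Nkiras2, an inhibitor of NF-kappa B signalling, also had groups that did not overlap, with a log2 fold change of 0.15 (SE 0.10, adjusted p = 1.00). Of the 23 genes, these 2 were higher in all 3 Yap-shRNA muscles than in all 3 control muscles (2.56% of all genes were). In the other direction there were 0.

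The genes whose values over the 6 muscles were most like those of Rrad were not RGK or channel genes. Likeness was the root mean square difference in log2 CPM after subtracting each gene's control mean, and its median over 13225 genes was 2.32. The nearest were Ccl2, a monocyte chemokine, at 0.75, Aldh3a1 at 0.84, Mt2, a metallothionein, at 0.91, Ccl7, another chemokine, at 0.99 and Mir155hg, the host transcript of miR-155, at 1.25. Ccl2 had 18, 4 and 7 reads in control and 27, 72 and 73 in Yap-shRNA muscles, and it shared the high control muscle 1 with Rrad. Mt2, with 175, 48 and 37 reads in control and 132, 450 and 609 in Yap-shRNA muscles, overlapped between groups, as did Ccl7. Mir155hg was highest in Yap-shRNA muscle 2, with 150, 223 and 232 reads in control and 885, 1356 and 495 in Yap-shRNA muscles. The nearest RGK or channel genes were Cacna1h at 2.17, 1408th of all genes, and Rem1 at 2.19, 1689th. Because likeness includes the difference between groups that chose Rrad, these genes are a description.

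**Figure D5:**
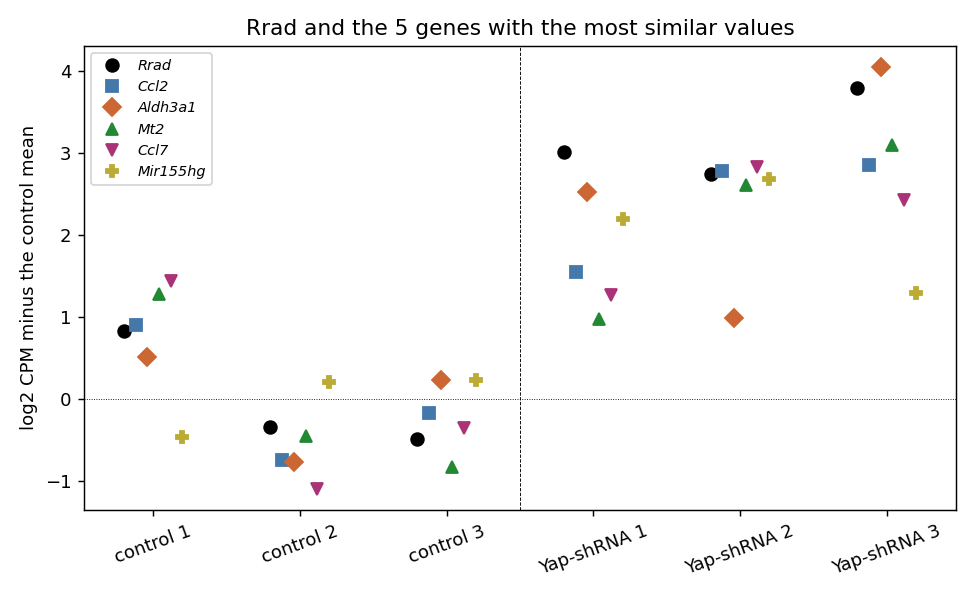
Log2 CPM minus the control mean in each muscle for Rrad and the 5 genes with the smallest root mean square difference from it. Of the control muscles, number 1 is the highest for each gene except Mir155hg, and Rrad, Ccl2, Aldh3a1 and Mt2 are highest in Yap-shRNA muscle 3.

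The summed markers of denervated or regenerating fibres and of slow fibres had the same order as Rrad within each group. The tendon gene Tnmd shared this order. Single markers were compared where they were most extreme in their list or had an unadjusted p below 0.05. Among these Runx1, Myh8 and Tnni1 kept the order, but Gadd45a and the slow fibre marker Myl2 did not. The order in the other markers, and the share of all genes with this order, are not given here. Gadd45a, of the first list, stood at 16.6, 18.1 and 15.4 CPM in control and 28.9, 17.1 and 26.1 CPM in Yap-shRNA muscles. The 9 markers of denervated or regenerating fibres (9 of 9 with a row, none at 0 reads in any library) summed to 119.7, 91.22 and 83.2 CPM in control and 117.7, 76.55 and 155.8 CPM in Yap-shRNA muscles. Their median log2 fold change was 0.16 with 7 positive, and none was called, as for every gene of the table. Of these, Runx1, a transcription factor induced by denervation, stood at 6.07, 1.50 and 1.23 CPM in control and 4.95, 4.53 and 9.01 CPM in Yap-shRNA muscles. Its log2 fold change of 1.06 (SE 0.54, adjusted p = 1.00) was the highest of the list, and control muscle 1 lay within the Yap-shRNA range. The lowest was Myh8, the perinatal myosin heavy chain, at -0.58 (SE 0.56).

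The 10 macrophage markers (10 of 10 with a row, none at 0 reads) summed to 237.9, 148.0 and 100.4 CPM in control and 172.1, 207.4 and 222.0 CPM in Yap-shRNA muscles. The sums overlapped because control muscle 1 was highest of all 6. All 10 log2 fold changes were positive, with a median of 0.34 and a range from 0.09 for Adgre1 to 0.72 for Cd68 (SE 0.36). None was called, as for every gene of the table. Cd163 was the 1 of 10 macrophage markers higher in all 3 Yap-shRNA muscles than in all 3 control muscles (2.56% of all genes were). Its log2 fold change was 0.55 (SE 0.25). The part of macrophage, denervation or slow fibre markers in the Rrad difference was not tested.

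The genes of the other marker lists were not called either, as for every gene of the table, and none was at 0 reads in a library. The 8 muscle fibre markers summed to 137800 to 160700 CPM in control and 131600 to 155000 CPM in Yap-shRNA muscles (median log2 fold change -0.08). The 5 slow fibre markers summed to 35.18, 30.94 and 17.4 CPM in control and 26.26, 11.82 and 36.92 CPM in Yap-shRNA muscles (median -0.17). Myl2, a slow myosin light chain, was the highest of them at 0.88 (SE 0.29), with groups that did not overlap. It was the 1 of these 5 markers higher in all 3 Yap-shRNA muscles than in all 3 control muscles (2.56% of all genes were). The 4 smooth muscle markers with a row, of 5 listed, summed to 122.7 to 221.6 and 85.69 to 158.9 CPM (median -0.40), without Myocd, which has no row here. The 6 endothelial markers summed to 350.3 to 412.2 and 367.9 to 400.1 CPM (median 0.02), and the 5 Schwann cell markers to 88.97 to 151.8 and 110.8 to 136.9 CPM (median 0.04).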

How the data were processed

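The authors deposited unnormalised gene counts for 6 libraries of polyadenylated RNA, and all 6 columns were matched to a sample by name. The submitters' processing notes name bcl2fastq 2.20.0.422 and build GRCm38. The aligner, the counter and the strand setting for these libraries are not given in the sources used here (the article names Skewer, STAR and featureCounts for its nuclear RNA). No gene had fewer than 60 reads summed over the 6 libraries, so low genes had been removed before deposit, and no further filter was applied.

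Counts were scaled by TMM and fitted with group as the term by edgeR 4.0.16 (quasi-likelihood test, two-sided) in R 4.3.3, with Benjamini-Hochberg adjustment over 13226 genes and a threshold of 0.05. Log2 CPM used a prior count of 2, and intervals are at the 95% level. Coefficients of variation for counting cover counting error only. P-values rest on the spread between 3 muscles a group, with the variance estimate of each gene drawn partly from all genes. The pairing of muscles within animals was not in this fit. The fit was also run on simulated counts with known changes, drawn independently for each muscle without pairing. Its outcome is not given here, and no result rests on it. Levels per kb used merged exons of GENCODE M21 (13199 of 13226 genes had a length), and promoters came from RefSeq (GRCm38.p6).

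The members and the gene lists were chosen with earlier results of these data known. The named genes were Yap1, the members, every other RGK or channel subunit gene with a row, the genes with the highest and the lowest log2 fold change of each list (channel coupling partners, RGK binding partners, other Ras-like GTPases) and the 5 genes most like Rrad. Other named genes (the genes most extreme in each marker list, Nkiras2, Cd163, Gadd45a, Acta1, Ckm, Alb, Tnmd, overlapping genes and genes called under another setting) were picked after their values were seen. Alternatives were DESeq2 1.42.0, edgeR's likelihood ratio test, limma-voom (limma 3.58.1), 2 other scalings, 2 count filters, a block for the replicate number, leaving out 1 muscle at a time, other gene lengths and, chosen after seeing the data, the quasi-likelihood test with adjusted deviances and leaving out control muscle 1 and Yap-shRNA muscle 3 together. One result on a binding partner is not reported here. The planned legacy quasi-likelihood fit is the default of this edgeR version and equals the fit reported.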

Additional observations from a re-analysis of the deposited data

How the results depend on the processing

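Every setting tried kept Rrad higher in Yap-shRNA muscles, with a log2 fold change from 2.82 to 3.78. In 17 of 17 settings it was within 1 SD (0.64, the spread of Rrad between muscles within groups) of the main fit. All settings reused the libraries by which Rrad was chosen, so this is a description. Across all genes, 5 passed the threshold with DESeq2 (Hspb7, Rrad, Ccl2, Yap1, Mir155hg) and 5 with the likelihood ratio test (Rrad, Ccl2, Yap1, Actc1, Mir155hg), so 1 member passed in each, by the contrast that chose it. Leaving out 1 muscle at a time gave 0 to 1 genes (Mir155hg without Yap-shRNA muscle 3) and no member. Without both muscles of high Tnmd (control 1 and Yap-shRNA 3; chosen after seeing the data) 3 genes passed (Ankrd1, Rrad, Mir155hg), 1 of them a member. The count at an unadjusted p below 0.05, 232 with all muscles, was 957 without control muscle 1, 129 without control muscle 3 and 736 without both muscles of high Tnmd. Genes of the other lists were never called. For the 14 other RGK and channel genes, 220 of 238 combinations of gene and setting kept their direction and none gained a call. The other 18 reversed, all where muscles were left out, with log2 fold changes from -0.073 to 0.23 for Cacna1s, -0.22 to 0.060 for Cacnb1, -0.16 to 0.097 (0.11 without both muscles) for Cacna2d1, -0.17 to 0.12 for Cacng1, -0.17 to 0.17 (0.058) for Cacna1a, -0.33 to 0.055 for Cacna1c, -0.52 to 0.19 for Cacnb3, -0.24 to 0.025 for Cacng6 and -0.25 to 0.068 (0.023) for Cacng7. The cause was not tested. With the longest transcript as length, 7 of 7 members kept their rank in level among the members, with coding length 2 and without a length correction 1. With a replicate block (muscles of the same number) 0 genes were called and Rrad stood at 3.18, but over genes, muscles that share a number correlated at -0.0654, 0.196 and -0.315 in their deviation from the group mean, and control muscle 1 correlated best with Yap-shRNA muscle 3 (0.383), so the numbers are not taken as pairs. At 26 to 41 reads a library, counting error limits what can be seen for Gem and Rem1.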
